A study of Mus musculus with 2 samples.

Results

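Retinol transport and retinoid metabolism are described here through 9 genes. Ttr and Rbp4 code for carriers of retinol in blood, and Lrat for the enzyme that stores it as an ester. Rdh16 and Rdh7 oxidise retinol, Aldh1a1 oxidises retinal, and Aldh1a7 is a close copy of Aldh1a1. Bco1 makes retinal from carotene, and Cyp26a1 breaks down retinoic acid. The genes were chosen by name, and all 9 were found among the 69691 rows of the deposited gene tables and in the transcript tables. The RNA was selected for polyA tails and came from liver tissue of 1 female C57BL/6J mouse (an inbred strain), an adult aged 10 weeks, with no treatment or genetic change in the labels. It was sequenced as 2 libraries, labelled technical replicates 1 and 2 of the same animal and called library 1 and library 2 below. The labels date library 2 to May 2015, so the library cannot be told apart from its date or handling. Each mean ± SD is over the 2 technical libraries (n = 2) and gives technical spread, not spread between animals.

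Vitamin A reaches the liver from the gut and is held there as retinyl esters, mostly in the lipid droplets of hepatic stellate cells, the pericytes of the liver sinusoids. Hepatocytes release retinol into blood bound to retinol-binding protein, and this pair travels bound to transthyretin, which keeps the small carrier from being lost in the kidney. Inside cells, dehydrogenases oxidise retinol to retinal and then to retinoic acid, the ligand of nuclear receptors that switch genes on or off, and Cyp26 enzymes oxidise retinoic acid to forms that are removed.

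The gene tables summed to 23309898 expected counts (the estimated number of reads or fragments of each gene) in library 1 and 19525502 in library 2. The libraries were far apart: 57.0% of the 12728 genes whose counts summed to 20 or more differed by 2-fold or more after scaling, and mitochondrial genes took 26.4% of counts in library 1 and 7.67% in library 2. Hepatocyte markers were high in both libraries, with summed levels of 38697 and 93163 TPM (the share of all transcripts held by a gene, corrected for length). Since TPM is such a share, more mitochondrial RNA lowers the TPM of every other gene. The median gene had a log2 TPM ratio of 0.84 in favour of library 2.

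The 9 genes spanned more than 3 orders of level on the TPM scale, and all 9 reached 1 TPM in both libraries. Rbp4 had the highest mean level, 2660 ± 1459 TPM, followed by Ttr at 2101 ± 2374, Aldh1a1 at 1021 ± 36.3, Rdh7 at 635 ± 574, Aldh1a7 at 151 ± 12.3, Rdh16 at 59.4 ± 18.4, Cyp26a1 at 29.7 ± 11.5, Lrat at 5.27 ± 1.05 and Bco1 at 2.13 ± 1.42. Of the 8 neighbouring pairs in this order, the library ranges overlapped for 3 (Rbp4 and Ttr, Ttr and Aldh1a1, Aldh1a1 and Rdh7), so these neighbours are not ordered beyond their spread. Rbp4 lay above Aldh1a1 and Rdh7 in both libraries with no overlap of ranges. From Rdh7 downward each gene lay above the next in both libraries with no overlap of ranges. The 4 highest genes held 93.8% of the summed TPM of the 9 genes in library 1 and 97.2% in library 2. As a share of nuclear protein-coding TPM, the 9 genes summed to 0.930% in library 1 and 1.33% in library 2.

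**Figure D1:**
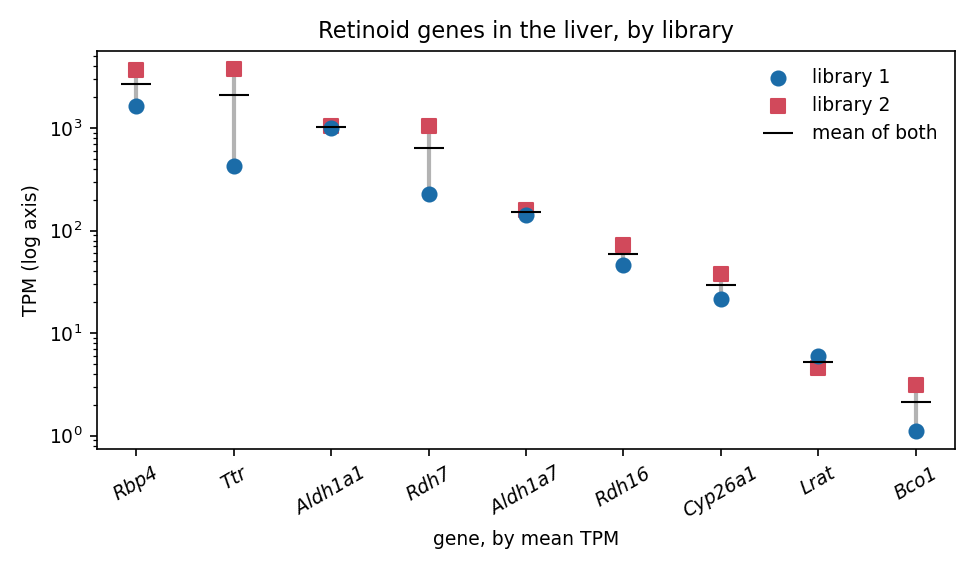
Level of the 9 genes in TPM (log axis) in library 1 (circles) and library 2 (squares), with the mean as a black bar and a grey line joining the 2 libraries. Ttr ran from 422 to 3779 TPM, whereas Aldh1a1 read 995 and 1047, and only Lrat was lower in library 2 on this scale.

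The carriers of retinol in blood were among the high transcripts of the liver. Ttr, which codes for transthyretin (ENSMUSG00000061808.3, GRCm38/mm10 chromosome 18, 20665280 to 20674321, plus strand), had 9967 expected counts in library 1 and 60150 in library 2, or 422 and 3779 TPM. It stood at rank 123 of the nuclear protein-coding genes in library 1 and at rank 22 in library 2. Library 2 was the high one by a factor that scaling did not remove: after TMM scaling, which sets the bulk of genes equal between libraries, the log2 fold of library 2 over library 1 was 2.27 (95% counting interval 2.24 to 2.30). That is a 4.82-fold difference between 2 libraries of the same liver. The deposited tables gave Ttr 1 transcript of 1219 bases and 4 exons, so no choice between isoforms entered its value.

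Rbp4, which codes for the retinol-binding protein of plasma (ENSMUSG00000024990.8, chromosome 19, 38116629 to 38125281, minus strand), had levels of 1629 and 3692 TPM in libraries 1 and 2 (27733 and 42527 counts). It ranked 29 and 23 among nuclear protein-coding genes. Its log2 fold after TMM scaling was 0.29 (0.27 to 0.32), inside 2-fold. The carrier proteins bind each other in blood, but their transcripts did not keep a fixed ratio between the libraries. Ttr was at 0.259 times the TPM of Rbp4 in library 1 and at 1.02 times in library 2.

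The tables split Rbp4 over 2 protein-coding transcripts of 6 exons each. The shorter one, ENSMUST00000112335 (930 bases in the tables), held 99.98% of the gene's TPM in library 1 and 98.71% in library 2. The longer one, ENSMUST00000025951 (1243 bases), which starts further upstream, held 0.02% and 1.29%, from 6.25 and 777.55 expected counts with posterior SDs of 4.61 and 40.4 counts (the quantifier's own uncertainty in dividing reads). Nearly all Rbp4 transcript in both libraries was thus assigned to the downstream start.

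Lrat, the enzyme that esterifies retinol for storage and, in liver, a marker of stellate cells (ENSMUSG00000028003.6, chromosome 3, 82892579 to 82903973, minus strand), was low in whole liver. Its level was 6.01 TPM in library 1 (708 counts, rank 4509) and 4.53 TPM in library 2 (361 counts, rank 7614). Lrat was lower in library 2 by a log2 fold of -1.29 (-1.48 to -1.11), and was the one gene of the 9 with a lower TPM there. The mRNA is long for its coding part, 5351 bases with 696 coding, and it had the lowest GC content of the 9 genes at 42.0% (the TPM-weighted share of G and C in its transcripts). In bulk tissue, fewer cells of a type and less RNA per cell cannot be told apart.

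The other stellate cell markers ran in both directions. All 14 listed markers had a count in both libraries, and their summed level was 199 TPM in library 1 and 320 in library 2. Library 2 was 2-fold or more higher for 8 of the 14, where 33.0% of all genes were, and lower for 1, Rgs5 (19.5 and 12.2 TPM, log2 fold -1.56), where 24.0% were. Less a smooth curve of fold on GC content over all genes, the balance turned to 1 higher and 4 lower, beside 16.7% of all genes past 2-fold in either direction. The most abundant of them, the matrix proteoglycan gene Dcn, read 121 and 118 TPM with a log2 fold of -0.90. The secreted matrix gene Reln read 32.1 and 19.2 TPM with -0.76, so both were on the side of Lrat under TMM scaling. Less the curve Dcn stood at 0.32, Reln at 0.57 and Lrat at 0.03. Ecm1, an extracellular matrix gene, read 7.10 and 104 TPM, and the stellate cell globin Cygb 0.16 and 2.99, from only 8 counts in library 1. Less the curve Ecm1 stood at 0.20 and Cygb at -0.20. The 1 marker then past 2-fold higher was Des (1.87, from 3 and 83 counts). The 4 lower were Hand2 (-2.59), Col1a1 (-2.08), Col1a2 (-1.89) and Col3a1 (-1.05). The part of the stellate cell markers in the value of Lrat was not tested.

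The genes that turn retinol into retinal and on to retinoic acid each belong to a family of near-identical copies, so the sequences are shown before the values. Aldh1a1 (ENSMUSG00000053279.6, chromosome 19, 20492715 to 20643465, plus strand) and Aldh1a7 (ENSMUSG00000024747.3, chromosome 19, 20692953 to 20727562, minus strand) lie 49.5 kb apart on opposite strands. Their coding sequences are both 1506 bases long and differ at 126 of them, an identity of 91.6%, with a longest identical run of 100 bases. The first 90 coding bases of each (GENCODE M21 reference transcripts), with the 5 differing bases in capitals, read:
Aldh1a1: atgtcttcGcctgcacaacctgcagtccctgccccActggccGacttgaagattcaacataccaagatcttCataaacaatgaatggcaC
Aldh1a7: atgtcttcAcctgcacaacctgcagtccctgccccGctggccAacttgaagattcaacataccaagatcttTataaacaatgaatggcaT
The likeness goes on upstream of the genes. The last 100 bases before a RefSeq start of each (GRCm38.p6), the downstream of the 2 starts listed for Aldh1a1 and the 1 of Aldh1a7, given on the strand of the gene, differ at the 6 bases in capitals. The Aldh1a1 stretch is chr19:20601868-20601967 on the plus strand and the Aldh1a7 stretch chr19:20727557-20727656 on the minus strand.
Aldh1a1: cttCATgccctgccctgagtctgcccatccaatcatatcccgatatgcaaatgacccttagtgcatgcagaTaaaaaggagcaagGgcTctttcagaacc
Aldh1a7: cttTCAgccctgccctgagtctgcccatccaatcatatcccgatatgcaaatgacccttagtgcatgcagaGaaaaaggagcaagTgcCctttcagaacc

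Aldh1a1, a cytosolic dehydrogenase that oxidises retinal to retinoic acid, was the steadiest of the abundant genes on the TPM scale, at 995 TPM in library 1 and 1047 in library 2. It had 42429 and 30130 counts, the most counts of the 9 genes in library 1, and ranked 56 and 87 among nuclear protein-coding genes. Aldh1a7, its close rodent copy, read 142 and 160 TPM from 6105 and 4627 counts. The pair kept nearly the same ratio: Aldh1a1 was at 7.00 times the TPM of Aldh1a7 in library 1 and 6.56 times in library 2. On the TMM scale both were lower in library 2 and inside 2-fold, with log2 folds of -0.82 (-0.84 to -0.80) for Aldh1a1 and -0.72 (-0.78 to -0.67) for Aldh1a7.

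Copies of this kind can exchange reads in the estimate. Of the 25-base words in the transcripts of Aldh1a1, 17.8% also occur in Aldh1a7, and 17.7% of those of Aldh1a7 occur in Aldh1a1. Words of 50 bases were shared at 7.53% and 7.49%. The quantifier reported a posterior SD of at most 0.03 counts for either gene, so by its own measure almost no read was divided between them. Each gene had 1 transcript of 13 exons in the tables.

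Rdh7 and Rdh16 code for microsomal short-chain dehydrogenases that oxidise retinol and also steroids. Rdh7 (ENSMUSG00000040134.8, chromosome 10, 127884028 to 127888817, minus strand) and Rdh16 (ENSMUSG00000069456.4, chromosome 10, 127801152 to 127846565, plus strand) share 86.1% of their aligned coding bases, with 132 mismatches in 951. Their first 90 coding bases, with the 4 that differ in capitals, show how alike the starts are:
Rdh7: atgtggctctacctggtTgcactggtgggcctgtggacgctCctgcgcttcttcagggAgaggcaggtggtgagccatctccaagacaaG
Rdh16: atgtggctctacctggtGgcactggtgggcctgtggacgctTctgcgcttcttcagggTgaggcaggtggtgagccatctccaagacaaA
The longest identical run between their coding sequences is 71 bases. Rdh16 is closer still to its neighbour Rdh9, at 96.3% identity with an identical run of 229 bases.

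Rdh7 was the more abundant of the pair, at 229 TPM (7801.98 counts, rank 239) in library 1 and 1041 TPM (23936.93 counts, rank 88) in library 2. Its log2 fold was 1.29 (1.26 to 1.33), a 2.45-fold difference. Rdh16 read 46.4 and 72.4 TPM from 3141.17 and 3284.85 counts, with a log2 fold of -0.26 (-0.33 to -0.19). Rdh7 was therefore at 4.93 times the TPM of Rdh16 in library 1 and 14.4 times in library 2. The level of Aldh1a1 was 4.35 times that of Rdh7 in library 1 and 1.01 times in library 2.

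Both genes lie in a cluster of 9 retinol and steroid dehydrogenase genes over 248 kb of chromosome 10, which summed to 474 TPM in library 1 and 1677 in library 2. Rdh7 alone held 48.3% and 62.1% of that sum. Hsd17b6, which acts on steroids and retinol, read 118 and 217 TPM. Rdh16f2, a family copy beside Rdh7, read 53.1 and 289 TPM, with a log2 fold of 1.55, and Rdh9 read 27.6 and 56.9 with a log2 fold of 0.05. Copies in the cluster thus ran from even to past 2-fold on the same scale. Rdh1 (0.18 and 0.42 TPM), the pseudogene Rdh18-ps (0.06 and 0.38) and Rdh16f1 (0.28 and 0) were close to 0, and Rdh19 had 0 counts in both libraries. A count of 0 allows up to 3 counts, or 0.0772 and 0.114 TPM of Rdh19, for counting error only.

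**Figure D2:**
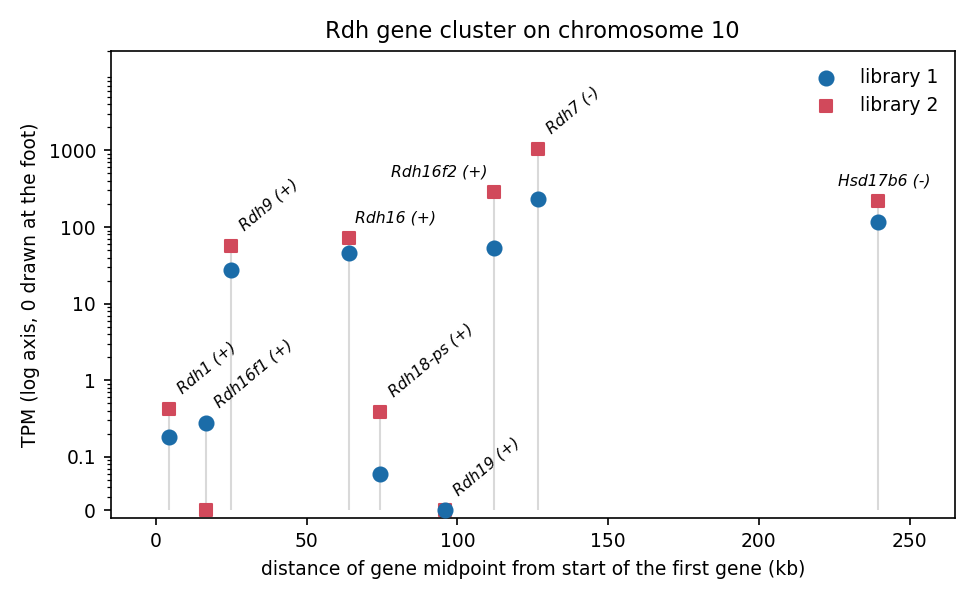
Level in TPM (log axis, with 0 drawn at the foot) of the 9 genes of the Rdh cluster against the distance of each gene's midpoint from the start of the first gene in kb, with the strand in brackets, in library 1 (circles) and library 2 (squares). Rdh7 was highest in both libraries, at 229 and 1041 TPM, and Rdh1, Rdh16f1, Rdh18-ps and Rdh19 lay under 1 TPM.

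The shared sequence in this cluster bears on how firmly the single values stand. Of the 25-base words of Rdh16, 26.3% occur in other genes, chiefly Rdh9 (12.4%) and Rdh16f1 (12.1%). Of those of Rdh7, 23.3% do, with 18.5% found in Rdh1, 18.1% in Rdh18-ps, 15.3% in Rdh19, 14.7% in Rdh16f1 and 10.1% in Rdh9. The posterior SD was 4.33 and 5.30 counts for Rdh16, at most 0.161% of its count, and 0.24 and 0.33 counts for Rdh7. It was larger for the low neighbour Rdh16f1, at 34.4 and 7.31 counts against estimates of 16.53 and 0. With the counts of Rdh7 and Rdh16 summed as 1 gene, the log2 fold was 0.99, just inside 2-fold, and the summed Aldh1a1 and Aldh1a7 gave -0.80. Such a sum lies between the folds of its genes whether or not reads were exchanged. It therefore does not tell how firm the value of either gene is.

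Rdh16 was the one gene of the 9 with several transcripts of visible share. ENSMUST00000071646, the full coding transcript, held 90.66% of the gene's TPM in library 1 and 89.41% in library 2. ENSMUST00000155739, annotated as a target of nonsense-mediated decay, held 6.18% and 8.77%, with posterior SDs of 42.95 and 39.02 counts on estimates of 136.84 and 204.9. Rdh7 and Bco1 had all of their TPM on 1 transcript each, ENSMUST00000047199 and ENSMUST00000034308. The other 5 genes had 1 transcript in the tables. Among the 3520 genes with at least 2 transcripts, a mean of at least 10 TPM and a TPM above 0 in both libraries, 47.5% shifted the share of some transcript by 20 percentage points or more. None of the 3 eligible retinoid genes did, with largest shifts of 1.27 points for Rbp4, 0 for Rdh7 and 2.59 for Rdh16. The second transcript of Rdh7 is 124 bases long and had 0 counts in both libraries, so Rdh7 tells little about isoform shares.

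Bco1, the oxygenase that cleaves beta-carotene into retinal (ENSMUSG00000031845.11, chromosome 8, 117095854 to 117133720, plus strand), was the lowest of the 9 genes. Its 55 counts in library 1 and 104 in library 2 gave 1.12 and 3.13 TPM. The few counts left its log2 fold of 0.59 with the widest interval of the set, 0.11 to 1.09, which reaches from almost no difference to 2-fold. Its relative Bco2, a carotenoid oxygenase of mitochondria, was higher, at 12.2 and 19.2 TPM. The transcription factor gene Isx, which restrains Bco1 in the intestine, had 0 counts in both libraries, an upper limit of 0.107 and 0.159 TPM.

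Cyp26a1, the cytochrome P450 that oxidises retinoic acid and is itself a target of retinoic acid receptors (ENSMUSG00000024987.5, chromosome 19, 37697798 to 37701536, plus strand), read 21.6 TPM in library 1 and 37.8 in library 2. Its counts were 782 and 925 and its ranks 1976 and 2055. The log2 fold of -0.08 had an interval of -0.22 to 0.06 that spans 0. The sister genes of the family were low or absent: Cyp26b1 read 0.18 and 0.45 TPM, and Cyp26c1 had 0 counts in both libraries, an upper limit of 0.0842 and 0.125 TPM. Cyp26a1 and Rbp4 lie 415 kb apart on chromosome 19.

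The promoters of 3 of these genes hold a motif that can be read directly in the sequence. RefSeq start sites were matched for 8 of the 9 genes, and promoters were taken as 250 bases before to 50 after each start (GRCm38.p6). The 60 bases before the start are given below on the strand of the gene. Capitals mark a TATA box (TATAAA, on the gene's strand, between 40 and 20 bases before the start) in Rbp4, at its downstream start, and in Bco1. In Cyp26a1 they mark the repeat that on the other strand reads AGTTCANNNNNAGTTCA. This is a form of the spaced direct repeat known as a retinoic acid response element. The Rbp4 stretch is chr19:38124812-38124871 on the minus strand, the Bco1 stretch chr8:117095805-117095864 on the plus strand and the Cyp26a1 stretch chr19:37697748-37697807 on the plus strand.
Rbp4: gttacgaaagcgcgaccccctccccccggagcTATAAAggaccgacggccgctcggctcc
Bco1: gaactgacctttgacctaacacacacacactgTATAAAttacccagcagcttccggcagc
Cyp26a1: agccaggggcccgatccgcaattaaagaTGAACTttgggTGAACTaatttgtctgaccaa
The start with the TATA box in Rbp4 is next to that of the transcript that held 99.98% and 98.71% of its TPM. TATAAA in that window occurred in 628 of 32851 RefSeq promoters (1.91%). Genes with the motif were as far apart in level as Rbp4 and Bco1, the highest and the lowest of the 9.

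The repeat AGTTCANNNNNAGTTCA, searched on both strands of the whole promoter window, occurred in 8 of the 32851 promoters (0.0244%), and in that of Cyp26a1 alone among the 8 genes matched. Only this exact spelling was searched, so promoters with other forms of the element, also among the 8 genes, were not counted. The spelling is that of the Cyp26a1 repeat itself, so its match there and the small share do not describe the element in general. The other promoters with this spelling belonged to Blvrb, Tnfsf13b, Pcsk2os2, Gm32342, Gm39910, Gm41579 and Gm5955. They are named because the count is small, after their values were seen. Of these, Blvrb, a biliverdin reductase, read 2.41 and 98.95 TPM, and Tnfsf13b and Pcsk2os2 were listed at 0 in both libraries. A match in letters is a description of the sequence, not a bound site.

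The 9 genes were then set beside all genes in the difference between the libraries. After TMM scaling 3 of the 9 were past 2-fold, against 57.0% of the 12728 genes tested. Ttr and Rdh7 were higher in library 2, where 33.0% of all genes were, and Lrat was lower, where 24.0% were. The median log2 fold was -0.08 over the 9 genes and 0.04 over all genes. With 9 genes chosen by name, these counts are a description and carry no test. Scaling by total count raised every fold by 0.58, and Ttr, Rdh7 and Bco1 were then past 2-fold higher and none lower, against 49.9% of all genes in either direction.

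On the TPM scale 8 of the 9 genes were higher in library 2. With TPM recomputed over nuclear protein-coding genes, 4 of the 9 were higher in library 2 (Ttr, Rbp4, Rdh7 and Bco1). On that scale Aldh1a1 read 2649 and 1420 TPM in place of 995 and 1047, and Cyp26a1 57.4 and 51.3 in place of 21.6 and 37.8. Ttr remained far apart, at 1123 and 5126, and Rbp4 was near equal, at 4334 and 5007.

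The difference between the libraries followed GC content over all genes, so each retinoid gene was read against genes of the same composition. The 9 genes ran from 42.0% GC (Lrat) to 54.3% (Rbp4), with a median of 46.7% against 49.8% over all tested genes. A smooth curve of log2 fold on GC content over 12055 genes ran at -1.32 at the GC content of Lrat and at 1.62 at that of Rbp4. Lrat lay on the curve: among 434 genes within 0.5 points of its GC content, 375 were called lower in library 2. With the curve subtracted its log2 fold was 0.03, close to no difference, so its lower value in library 2 was not kept. Aldh1a1, Aldh1a7, Rdh16 and Bco1 lay within 0.5 of the curve, at -0.16, -0.09, 0.31 and 0.48.

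**Figure D3:**
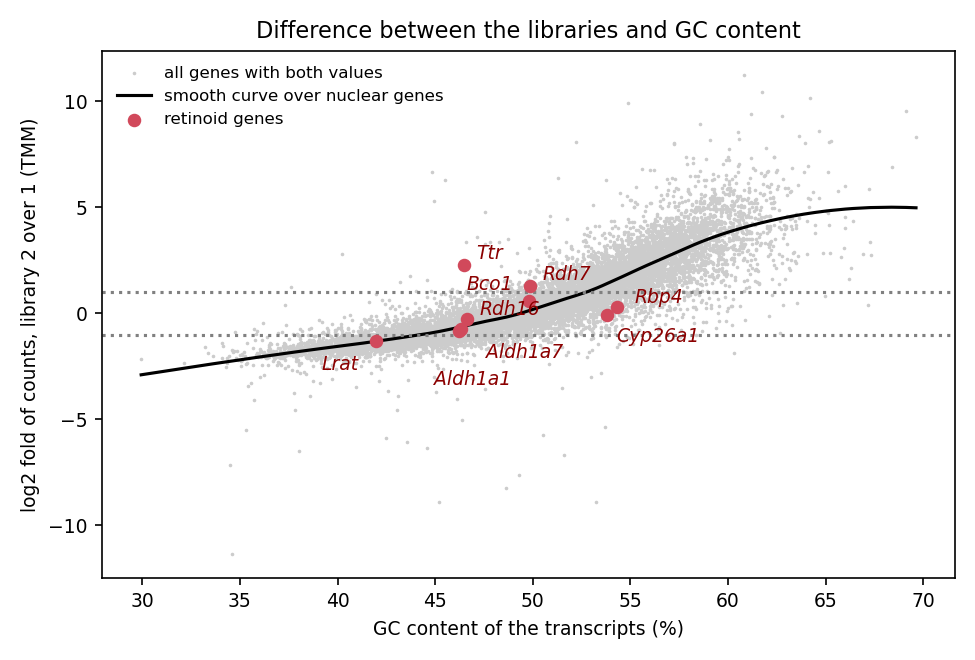
Log2 fold of TMM-scaled counts, library 2 over library 1, against the GC content of each gene's transcripts in percent for 12055 genes (grey), with the smooth curve (black), 2-fold limits (dotted) and the 9 retinoid genes (red). Ttr and Rdh7 lay above the curve, Rbp4 and Cyp26a1 below it, and Lrat on it.

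Ttr, Rdh7, Rbp4 and Cyp26a1 did not follow the genes of their own composition. Ttr, at 46.5% GC, had a log2 fold of 2.27 where the 656 genes within 0.5 points had a median of -0.65. Only 1 of the other 655, Gm15387, named after its value was seen, was as high. With the curve subtracted Ttr stood at 2.88, a value reached by 94 of 12055 genes. Rdh7, at 49.9% GC, stood at 1.15 after subtraction, and 26 of the other 639 genes of its composition were as high.

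Rbp4 and Cyp26a1 departed in the other direction. Rbp4 had a log2 fold of 0.29, but 492 of the 627 genes within 0.5 points of its GC content were called higher in library 2, and after subtraction it stood at -1.33. Cyp26a1, at 53.8% GC, stood at -1.49, and 33 of the other 636 genes of its composition were as low or lower. After subtraction 4 of the 9 genes were therefore past 2-fold, 2 in each direction, against 16.7% of the 12055 genes. The near-equal raw folds of Rbp4 and Cyp26a1 and the raw fold of Lrat thus read differently once composition is set aside.

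Part of the transcript can differ from the whole in composition. The 444 coding bases of Ttr are 55.0% GC and its 742 noncoding bases 41.4%, so its coding part resembles that of Rbp4 (56.3%) and Cyp26a1 (56.4%). Against a curve drawn on the GC content of coding sequences, an alternative chosen after seeing the data, Ttr stood at 1.03 in place of 2.88. On that curve Ttr was past 2-fold higher and Rbp4 (-1.39), Lrat (-1.43), Rdh16 (-1.47) and Cyp26a1 (-1.79) were lower, with 33.2% of 11384 genes past 2-fold in either direction. Ttr was the one gene past 2-fold and higher under TMM, total count, TPM and both curves. Rdh7 fell inside it on the coding curve, at 0.66. Whether sequence composition sets any of these differences was not tested.

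**Figure D4:**
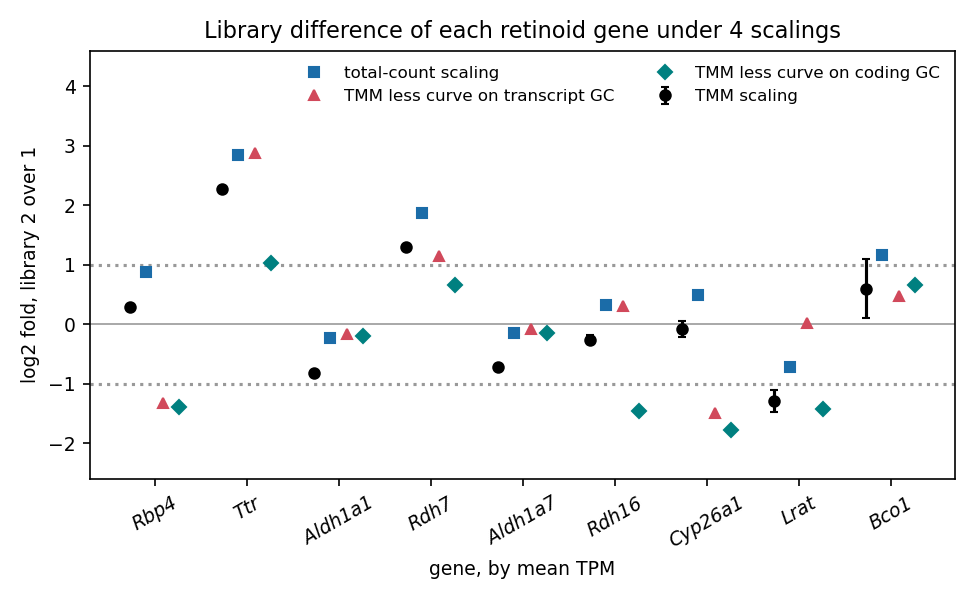
Log2 fold of library 2 over library 1 for each of the 9 genes under TMM scaling (circles, with 95% counting intervals), total-count scaling (squares), and TMM less a curve on transcript GC (triangles) or on coding GC (diamonds), with 2-fold limits dotted. Ttr lay above the upper limit under all 4, Aldh1a1 and Aldh1a7 inside both limits under all 4, and Lrat ran from -1.43 to 0.03.

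A further 53 genes of the pathway were read in 6 lists. Of the 53, 31 reached 1 TPM in both libraries and 7 had 0 counts in both (Crabp1, Crabp2, Rbp2, Rdh12, Rdh19, Isx and Cyp26c1). A fold could be given for 41, of which 14 were past 2-fold higher in library 2, 3 were lower and 24 were inside 2-fold, with a median log2 fold of 0.40, beside the 57.0% of all genes past 2-fold. With the GC curve subtracted 6 were higher and 1 lower of 39, beside 16.7% of all genes past 2-fold in either direction.

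Among the genes of uptake and binding, the retinol-binding protein receptor Stra6 was near 0 (0 and 0.03 TPM), while its relative Stra6l, which takes up retinol in liver, read 39.2 and 93.4 TPM with a log2 fold of 0.31. Scarb1, a lipoprotein receptor that also takes up carotenoids, read 13.5 and 131 TPM (log2 fold 2.59). After subtraction of the GC curve Scarb1 was at 0.29.

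Of the 9 other genes of ester storage and hydrolysis, 3 were past 2-fold higher and 1 lower, beside 33.0% and 24.0% of all genes. The carboxylesterases Ces1d (273 and 670 TPM) and Ces1g (158 and 271), which can hydrolyse retinyl esters, were inside 2-fold, with log2 folds of 0.41 and -0.11. The lipid droplet coat gene Plin2 read 49.0 and 334 TPM (2.10). The lipases Pnpla2 (2.58 and 38.5 TPM) and Lipe (0.14 and 5.78) had log2 folds of 4.30 and 4.51, and lipoprotein lipase, Lpl, was the lower one (7.80 and 5.74 TPM, -1.33). Less the GC curve Plin2 stood at 1.33, Pnpla2 at 1.18, Lipe at 1.21 and Lpl at -0.21. Then 4 of 8 genes were higher and none lower, beside 16.7% of all genes past 2-fold in either direction (1036 of 12055 higher and 974 lower). The count hangs on the limit: Lipc, the other higher gene, was at 1.02, and Dgat1 at -0.999 lay just inside. Lipe had only 8 counts in library 1.

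Among the 19 other genes of retinol and retinal oxidation and reduction, 16 had a fold, 4 higher, 1 lower and 11 inside 2-fold, beside 33.0% and 24.0% of all genes higher and lower. Adh1, the abundant cytosolic alcohol dehydrogenase that also oxidises retinol, read 445 and 2159 TPM (log2 fold 1.63). It exceeded Rdh7 in both libraries and the other dehydrogenases of the list too. Adh5 read 182 and 304 TPM (0.04). The other higher genes were Rdh16f2, Rdh5 (2.99 and 28.0 TPM) and Dhrs4 (25.3 and 102), and the lower one was Adh7 (0.81 and 0.65). Less the GC curve 1 of the 16 was higher, Adh1 at 1.11, and 1 lower, Rdh14 at -1.02, beside 16.7% of all genes. Rdh16f2 then stood at 0.70, Rdh5 at 0.35, Dhrs4 at -0.31 and Adh7 at 0.15.

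Of the 7 other genes that lead to retinoic acid or cleave carotene, the 4 with a fold were inside 2-fold. They were Aldh8a1, a retinal dehydrogenase of liver (72.8 and 199 TPM), the aldehyde oxidases Aox3 (76.2 and 108) and Aox1 (9.35 and 18.2), and Bco2. The retinal dehydrogenases of the embryo, Aldh1a2 (0.06 and 0.25 TPM) and Aldh1a3 (0.05 and 0.23), were near 0, so Aldh1a1 made up nearly all of the TPM of these 3 enzymes. In retinoic acid breakdown, the glucuronosyltransferase Ugt1a1 read 343 and 575 TPM (-0.14) and Ugt2b1 423 and 244 (-1.68). Less the GC curve Ugt2b1 stood at -0.15, inside 2-fold.

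The receptors of retinoic acid and their partners had the highest median log2 fold of the 6 lists, 2.64. Of 6, 5 were past 2-fold higher in library 2, beside 33.0% of all genes: Rxra (9.87 and 101 TPM, log2 fold 2.42), Rxrb (0.52 and 18.3, 4.12), Rara (0.43 and 6.98, 3.07), Rarg (0.37 and 3.76, 2.85) and Rxrg (0.67 and 4.36, 1.80). Rarb, at 2.19 and 2.21 TPM, had a log2 fold of -0.87. These genes had a median GC content of 57.8%, and with the curve subtracted none of the 6 was past 2-fold, beside 16.7% of all genes. Rxra was the most abundant receptor in both libraries.

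**Figure D5:**
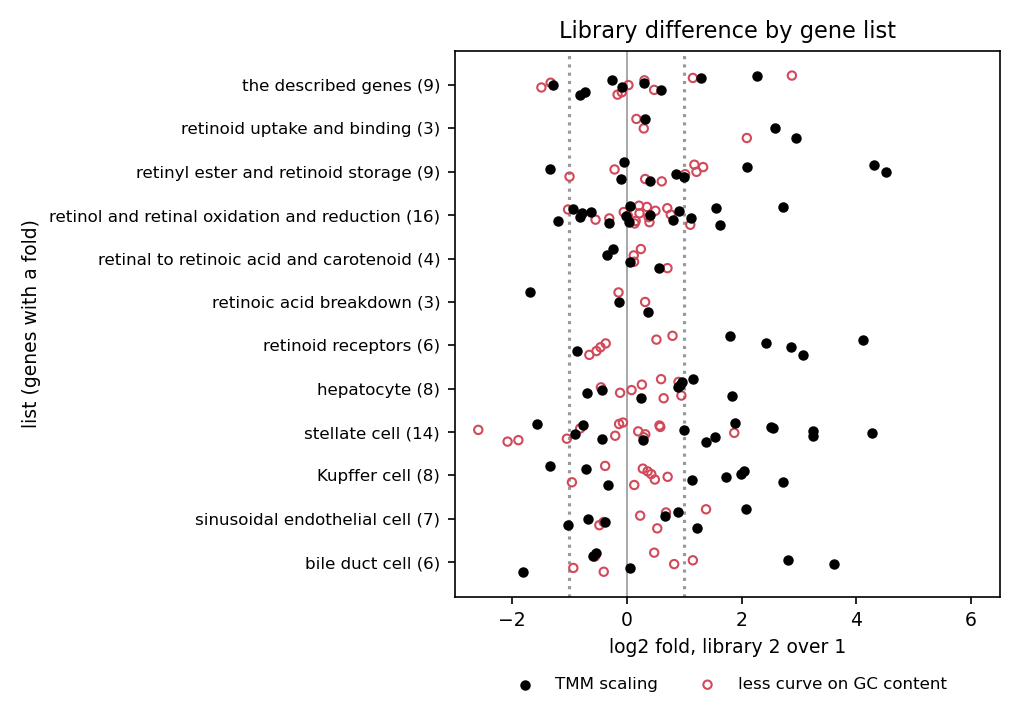
Log2 fold of library 2 over library 1 for each gene with a fold in the set of 9 genes, 6 other retinoid lists and 5 lists of cell type markers, after TMM scaling (filled) and less the curve on GC content (open), with 2-fold limits dotted. The 5 receptor genes above 2-fold moved inside the limits once the curve was subtracted, whereas Ttr, the rightmost of the 9 genes, did not.

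Markers of the other liver cell types were present in both libraries. Kupffer cell markers summed to 72.9 TPM in library 1 and 213 in library 2, with 5 of 8 past 2-fold higher and 1 lower, beside 33.0% and 24.0% of all genes. Sinusoidal endothelial markers summed to 70.8 and 144, with 2 of 7 higher and 1 lower, and bile duct markers to 48.0 and 63.3, with 2 of 6 higher and 1 lower. Spp1 held most of the bile duct sum, at 45.9 and 58.0 TPM, and only 2 of the 6 reached 1 TPM in both libraries. The bile duct calls rest on few counts, 2 and 37 for Krt19, 2 and 21 for Krt7 and 18 and 6 for Cftr. Of the 8 hepatocyte markers 2 were higher and none lower. Less the GC curve none of the 8 Kupffer or 8 hepatocyte markers was past 2-fold, beside 16.7% of all genes in either direction. Of the 6 sinusoidal markers with a GC value 1 was then higher and none lower, and the same held for the 6 bile duct markers. None of the listed markers had 0 counts in both libraries. The part of cell makeup in the values of the 9 genes was not tested.

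Other annotated genes overlap 4 of the 9. Rbm46os (opposite strand of Lrat), Gm6684 (opposite strand of Aldh1a1) and Gm20694 (same strand as Bco1) had 0 counts in both libraries, and Rdh18-ps, on the strand of Rdh16, had 1.11 and 4.53 counts. The use of strand in counting is not given in the sources used here, so reads of overlapping genes on opposite strands cannot be told apart.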

How the data were processed

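The authors' tables came from alignments to the transcriptome on mm10 with GENCODE annotation M4, per the deposited description files, and the quantifier is not given in the sources used here. The authors deposited expected counts (estimated, not normalised), TPM and FPKM (per length and depth) and the percent of each gene's TPM on each transcript, per the file headers. Gene names, coordinates and sequences came from GENCODE M21 (GRCm38) and promoters from RefSeq.

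Log2 folds were taken from rounded expected counts of genes summing to 20 or more, after TMM scaling in edgeR 4.0.16 (factors 0.818 and 1.22) with a prior count of 0.5. With 1 library a side there are no residual degrees of freedom, so no test was made. A gene counted as past 2-fold at a log2 fold of 1. Intervals are exact binomial at 95% and cover counting error only. The GC curve is a loess (span 0.3) over nuclear genes. The folds were checked on counts simulated with counting error only. There 200 genes with summed counts of at least 200 were changed past 2-fold. All 200 were called, and so were 78 unchanged genes. No GC-linked or mitochondrial difference between libraries was simulated, so the check covers the calculation and not the calls made here. The 9 genes and the lists were chosen with earlier results of these data known. Named genes are the 9, of each pathway list those with the highest mean TPM, past 2-fold or at 0, and sequence copies. Of the cell type markers only some such genes are named, picked with their values known. Stra6, Lipc, Dgat1, Rdh14, Aox1, Aldh1a2, Aldh1a3, Rarb, Hand2, Col1a2, Col3a1, Blvrb and Gm15387 lie outside that rule. The 95% intervals rest on depths of 23309898 and 19525502 counts. The values of 1 listed pathway gene are not reported here.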

Additional observations from a re-analysis of the deposited data

How the results depend on the processing

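The count of genes past 2-fold was 3 of 9 under total-count scaling, DESeq2 size factors (DESeq2 1.42.0), no count filter, a prior count of 2 and without mitochondrial genes, and 3 of 8 at a summed count of at least 200, which left out Bco1. It was 4 by the ratio of TPM, 4 with the GC curve subtracted and 2 with the paralogs summed, where each summed pair counted as 1 gene. At a 4-fold limit it was 1, and with the curve on coding GC, added after seeing the data, it was 5. Of the 41 other pathway genes with a fold 17 were past 2-fold, beside 57.0% of all genes. With the GC curve subtracted 7 of 39 were, beside 16.7% of all genes. At 4-fold 10 of the 41 were, and the share of all genes past 4-fold was not computed. The log2 fold of Lrat moved from -1.29 to 0.028, close to no difference, with the GC curve subtracted. With the curve on coding GC subtracted it was -1.43, still past 2-fold lower. Of 87 recomputed log2 folds, 44 left the counting interval, and that of Lrat was the 1 called fold that changed sign. All 9 genes reached 1 TPM with either library alone, and 7 reached 5 TPM in both. No transcript share of an eligible gene shifted by 10 points. No paired analysis was possible because the libraries form 1 group. Depth limits Bco1 most, with 55 and 104 counts.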
